A study of Danio rerio with 12 samples.

Results

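The splicing factor gene families were followed through the ageing of the zebrafish (Danio rerio) heart, with hearts taken at 6, 12, 24 and 36 months. The genes were taken by name alone: every gene whose symbol begins with snrp, lsm and a digit, sf3a or sf3b, prpf, srsf, hnrnp or u2af, in capitals or not. That gave 92 of 50640 genes, with 12 snrp, 14 lsm, 9 sf3, 13 prpf, 18 srsf, 23 hnrnp and 3 u2af genes. Below, a splicing factor gene means a gene with such a name, and whether each acts in splicing was not tested. The series traces natural ageing of the heart, with 3 libraries at each age made from total RNA that was extracted with Trizol. All fish are described as kept under standard conditions, with no treatment or genotype given. Sex, strain and collection time are not given, nor whether a library is 1 heart or a pool, so the p-values speak only of the spread among these 12 libraries, which may be technical.

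Splicing removes introns from pre-mRNA and is carried out by the spliceosome, which is built from small nuclear ribonucleoproteins (snRNPs). Each snRNP is a small RNA wrapped by a ring of Sm or Sm-like (LSm) proteins, with further proteins of its own. The U2 snRNP marks the branch point of an intron with the help of the SF3A and SF3B complexes, U2AF binds the end of the intron next to it, and the PRPF proteins act in later assembly and catalysis. SR proteins (srsf) and hnRNPs bind exons and introns and steer which splice sites are used. In heart muscle, alternative splicing of titin and other sarcomere and calcium-handling genes is a known part of maturation and disease.

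FPKM, the unit of all levels here, counts fragments per kilobase of a gene and scales them by a size for each library. Here that size followed a median-ratio size factor, the median over genes of a library's reads relative to all libraries, and not the reads in genes. The ratio of size to factor ranged over 0.988% of its mean. Where 1 level stands for an age, it is the mean ± SD of its libraries (n = 3). The libraries held 7333060 to 11145869 reads in genes, and the 92 splicing factor genes took 0.342% to 0.455% of them. Genes with a mean of at least 1 FPKM over the 12 libraries were tested, 16223 in all, with limma on log2(FPKM + 1) and a Benjamini-Hochberg adjusted p under 0.05. Log2 differences are on that scale, which understates the change of genes at low levels, and are followed by their standard error. On the first principal component of all tested genes, the first 6-month library lay at -4.07, away from the remaining libraries of its age at -40.8 and -34.7. Since whole hearts were sequenced, fewer cells of a type and less RNA per cell cannot be told apart.

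The tables measured these families unevenly. Of the 92 genes, 55 reached a mean of 1 FPKM and were tested, 29 were under 0.1 FPKM, and 13 were listed at 0 in all 12 libraries. Those 13 include genes of the core machinery that every cell uses: sf3b1, the largest SF3B subunit, u2af1, the small U2AF subunit, and snrpd3, an Sm ring protein. The low values went with the annotation: 50 of the 92 genes (54.3%) are overlapped on their own strand by an unnamed locus of the tables, against 29.9% of protein-coding genes. The tested share was 30% among the 50 overlapped genes and 95.2% among the 42 others. Among all protein-coding genes the tested shares were 17.6% with such an overlap and 47.5% without.

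In all, 35 of the 37 genes that were not tested are overlapped in this way; the others are lsm10 and lsm14b. The 37 genes held 1664 reads in the 12 libraries together, while the 35 loci over them held 70531. How the authors counted reads that fall in both is not given in the sources used here. Of the 35 overlapped genes, 16 lie under a locus with a mean of at least 1 FPKM. The sf3b1 gene is wholly covered by a locus at 22.1 FPKM on average, and the 2 genes named srsf3a, an SR protein gene with 2 entries in the tables, by a single locus at 22.8 FPKM. Another 10 of the 35 lie under loci with 0 reads, prpf8, the central scaffold of the spliceosome, and u2af1 among them. None of these 37 genes was compared between ages in the main fit, and only an alternative run with no filter took them in.

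**Figure D1:**
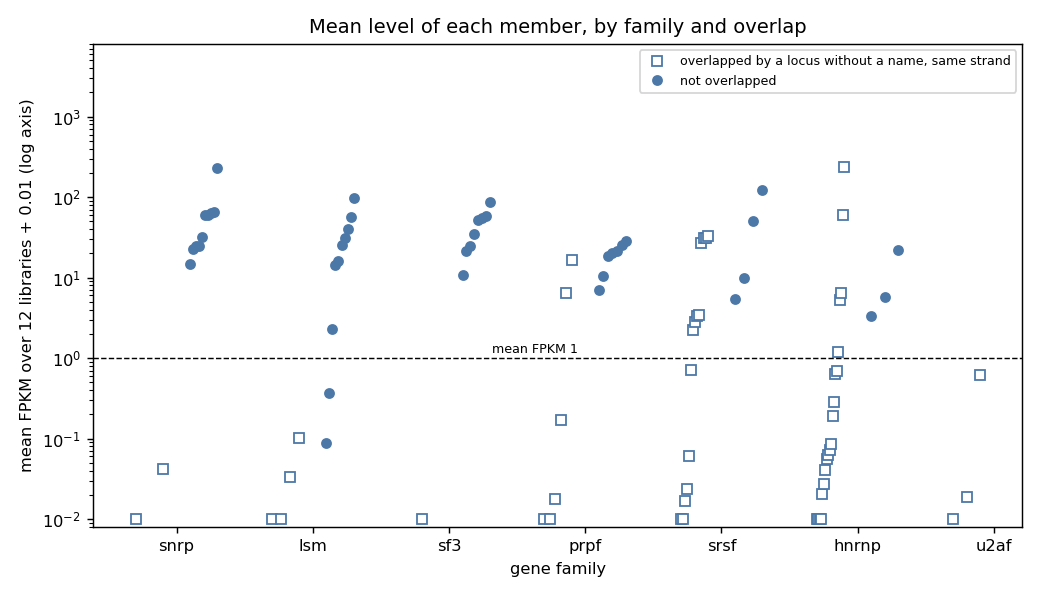
Mean FPKM over the 12 libraries of each of the 92 genes (log axis, with 0.01 added so that genes at 0 can be drawn), by family along the horizontal axis. Open squares are the 50 genes with an unnamed locus over them on the same strand, filled circles the 42 others; all but 2 of the circles lie above the dashed line at 1 FPKM, against 15 of the squares.

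At 36 against 6 months, 6 of the 55 tested genes rose and 1 fell. The 7 calls are 12.7% of the genes tested, where 8.25% of all 16223 genes were called in this comparison (3.95% higher and 4.3% lower). The genes that rose were snrpb, sf3b3, sf3a1, hnrnpd, srsf10a and the hnrnpa0l gene on chromosome 14, and the gene that fell was prpf18. The log2 difference was above 0 for 37 of the 55, with a median of 0.14, where 50.0% of all genes were above 0 and the median was 0. In 15 genes all 3 values at 36 months were higher than all 3 at 6 months and in 4 all were lower, against 13.4% and 14.4% of all genes. Among the 40 tested genes with no unnamed locus over them, 3 rose and 1 fell.

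The families did not move evenly. The median log2 difference at 36 against 6 months was 0.35 over the 8 SF3 genes, 0.22 over the 10 snrp genes, 0.19 over the 12 srsf genes, 0.15 over the 8 lsm genes, 0.12 over the 8 hnrnp genes and -0.03 over the 9 prpf genes. These medians are descriptions, and the difference between families was not tested. The summed level of all 92 genes was 1870 ± 84.1 FPKM at 6 months, 1938 ± 110 at 12, 2113 ± 124 at 24 and 2241 ± 253 at 36 months. That sum rests on 1 library more than the others at 36 months, where the first replicate held the highest of the 12 values for 13 of the 55 genes (23.6%, against 9.98% of all genes tested). The most abundant genes also weigh most in it. Between 6 and 36 months the mean of snrpb went from 161 to 308 FPKM and that of the chromosome 14 hnrnpa0l gene from 202 to 285. As 18 of the 55 tested genes had a log2 difference below 0, the sum does not stand for a rise of every gene. The first library at 6 months held the lowest value for 11 of the 55 (20%, against 14.6% of all genes) and the highest for 0 (against 12.5%). Leaving out single libraries moved the number of calls, to 1 without the first or the second 36-month library, 2 without the third, 2 without the second or the third 6-month library and 4 without the first. It was 4 and 3 without the first and the second 12-month library, 6 without the third, and 3, 3 and 4 without each of the 24-month libraries.

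**Figure D2:**
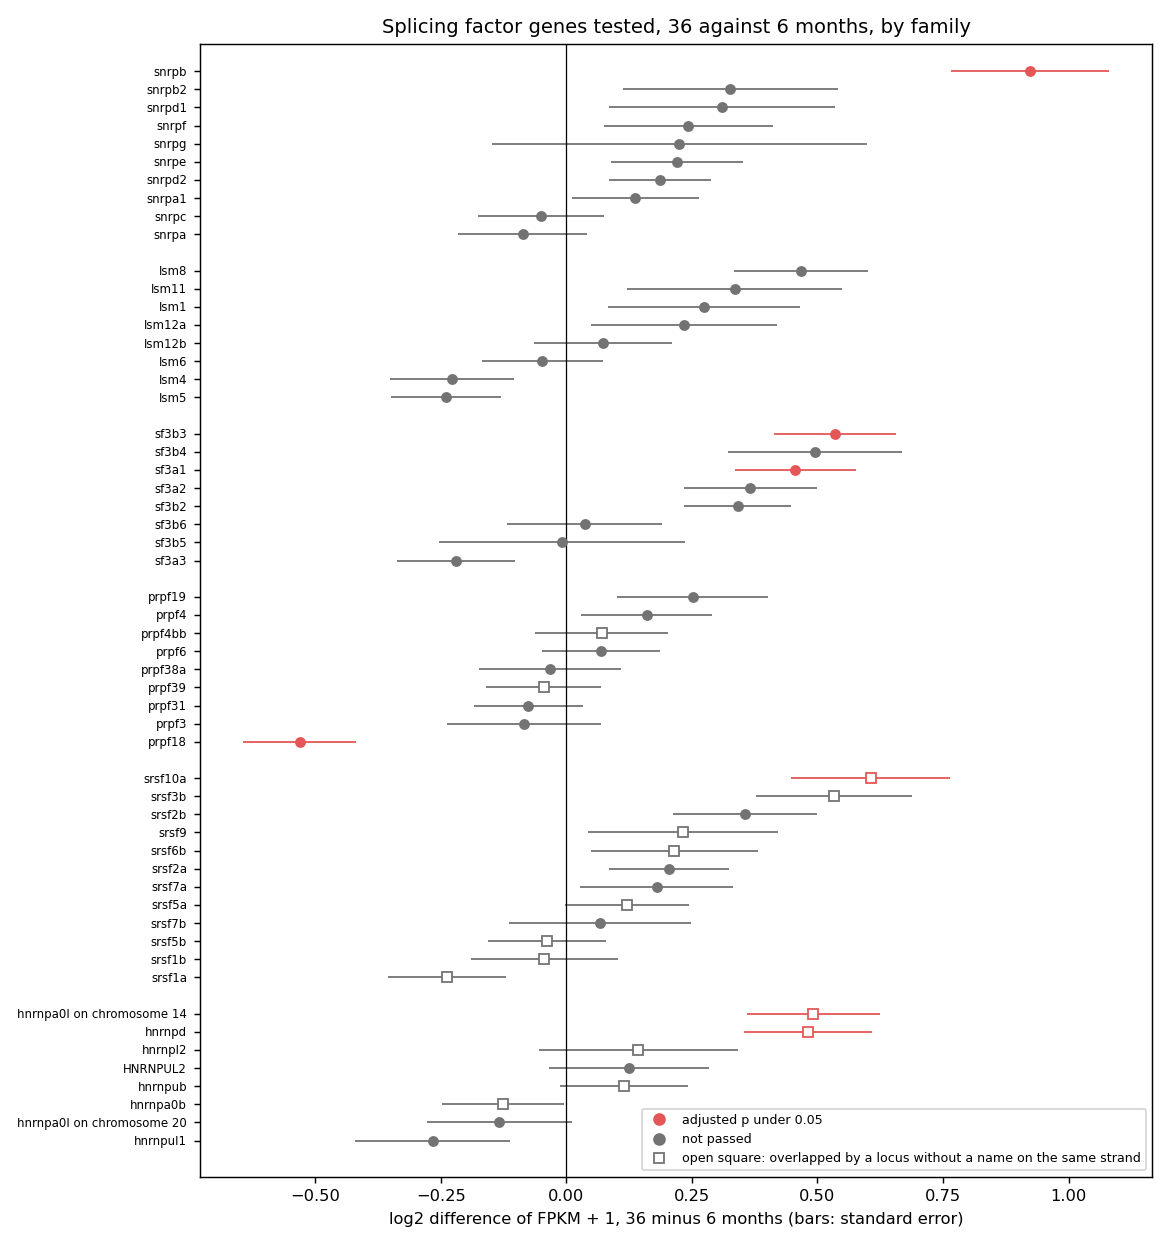
Log2 difference of FPKM + 1 at 36 minus 6 months for the 55 tested genes, by family and ordered within it; points are estimates and bars 1 standard error. The 7 genes with an adjusted p under 0.05 are in red, with snrpb farthest to the right at 0.92 and prpf18 farthest to the left at -0.53; open squares are genes with an unnamed locus over them.

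The largest difference was in snrpb, which encodes the SmB subunit of the ring that wraps the U1, U2, U4 and U5 RNAs. The gene (ENSDARG00000011125) lies at chr6:57481473-57488547 on the minus strand of GRCz11 and had 1354 to 2858 reads in a library. Its level was 138, 169 and 174 FPKM in the 6-month libraries, 169, 184 and 158 at 12 months, 278, 267 and 323 at 24 months and 372, 250 and 301 at 36 months. All 6 libraries of 24 and 36 months were higher than all 6 of 6 and 12 months. The mean was 308 ± 61.1 FPKM at 36 months, against 161 ± 19.3 at 6 months, a ratio of 1.92 and a log2 difference of 0.92 ± 0.16 (adjusted p = 0.00958).

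The snrpb difference was already seen at 24 months, with 289 ± 29.9 FPKM against 161 ± 19.3 FPKM at 6 months (log2 difference 0.85 ± 0.16, adjusted p = 0.0413). Against 12 months, at 170 ± 12.6 FPKM, the 24-month level gave 0.76 with an adjusted p of 0.0592, which misses the threshold. The F test across the 4 ages gave an adjusted p of 0.0122. The call at 36 months held without any single library, with an adjusted p of at most 0.0307, and was lost where only the libraries of 6 and 36 months were fitted (0.0665). The call at 24 months was lost without any of 8 of the 12 libraries, all 3 of 24 months among them, with an adjusted p of at most 0.147. An antisense gene, CU929339.1, covers 20.7% of the gene at 0.857 FPKM on average, and its reads cannot be told apart if the counting ignored strand.

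**Figure D3:**
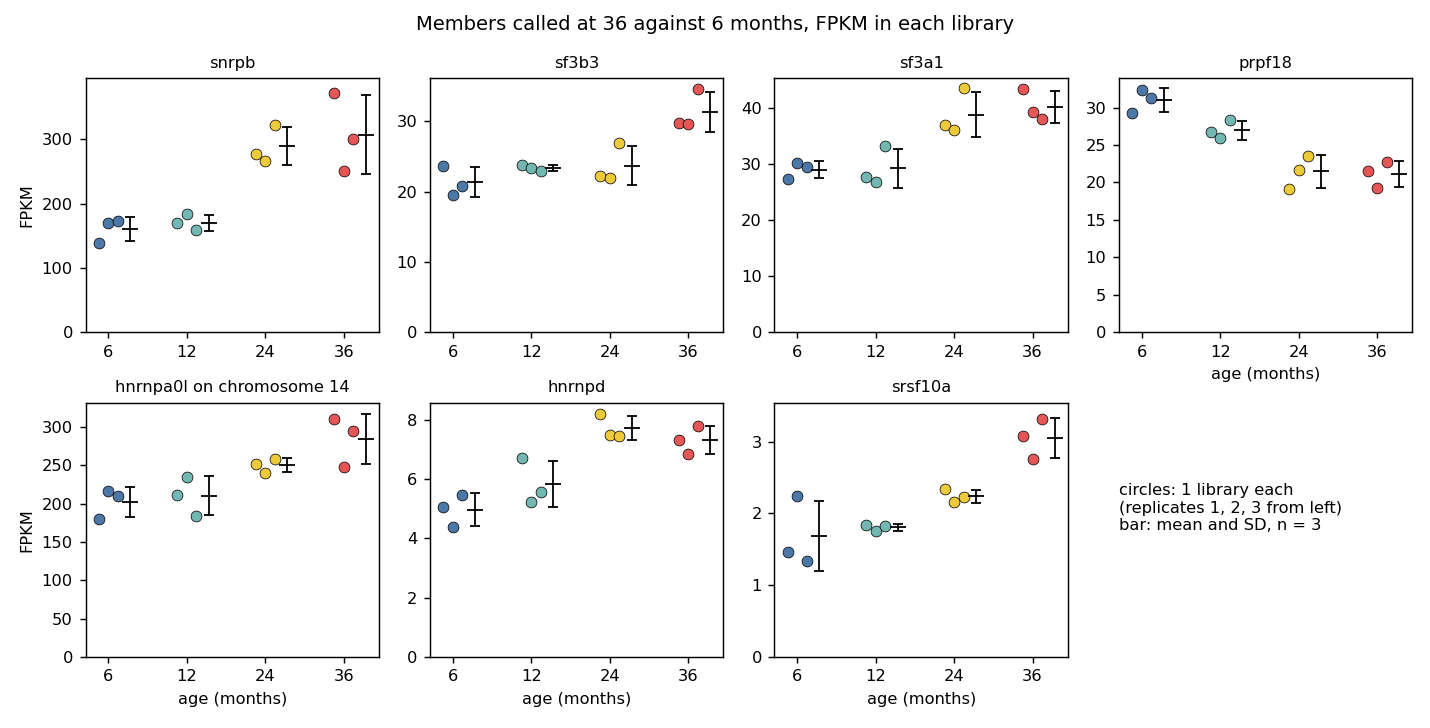
FPKM of the 7 genes called at 36 against 6 months, in each library (circles, replicates 1, 2 and 3 from left to right) at each age in months, with mean and SD (n = 3). Each panel has its own scale from 0. In snrpb, sf3a1, hnrnpd and hnrnpa0l the values of 24 and 36 months lie above those of 6 and 12 months, and in prpf18 below them. In sf3b3 and srsf10a the 36-month values stand above all others.

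None of the other 5 measured Sm ring genes passed the test; the SmD3 genes were not tested, with snrpd3 listed at 0 and snrpd3l at 2 reads in the 12 libraries. snrpg, the SmG subunit and the next most abundant snrp gene, had 58.4 ± 22.7, 77.7 ± 13.3, 59.7 ± 23.3 and 66.3 ± 19.3 FPKM at 6, 12, 24 and 36 months, with single values between 32.5 and 86.7. The sum of snrpd1, snrpd2, snrpe, snrpf and snrpg was 247 ± 36.7 FPKM at 6 months, 286 ± 23.6 at 12, 256 ± 38.0 at 24 and 289 ± 51.7 at 36 months. In the same libraries snrpb was 0.666 ± 0.160 of that sum at 6 months, 0.597 ± 0.00604 at 12, 1.13 ± 0.0648 at 24 and 1.07 ± 0.188 at 36 months. The 6 ratios of the older ages ran from 0.890 to 1.27 and the 6 of the younger ages from 0.509 to 0.829, so they did not overlap; the ratio was looked at after the snrpb values were seen and was not tested. The 9 other snrp genes, which also include U1 proteins (snrpa and snrpc) and U2 proteins (snrpa1 and snrpb2), had log2 differences of -0.09 to 0.33 at 36 against 6 months. Their adjusted p ran from 0.272 to 0.835.

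**Figure D4:**
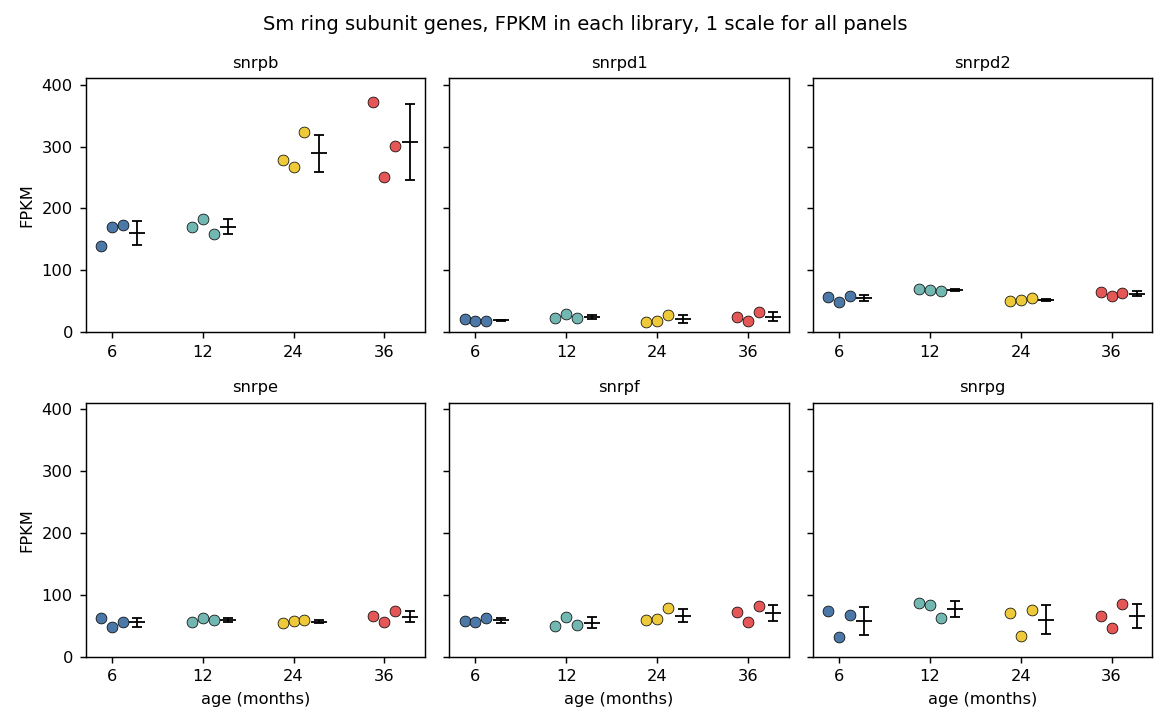
FPKM of 6 Sm ring subunit genes in each library (circles) at each age in months, with mean and SD (n = 3), on 1 scale for all panels. snrpb lies at 138 to 184 FPKM at 6 and 12 months and at 250 to 372 at 24 and 36 months, while the other 5 stay under 90 FPKM at every age.

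Of the 8 tested SF3 genes 2 rose at 36 against 6 months (25% called, where 8.25% of all genes were). In the same direction 3 more had an unadjusted p under 0.05. An unadjusted p under 0.05 was met by 13 of the 55 splicing factor genes (23.6%) and by 25.6% of all genes in this comparison. sf3b3 encodes a large scaffold subunit of SF3B (ENSDARG00000103553, chr18:18561352-18595773, minus strand, with 4 small nucleolar RNA genes inside it). It was at 29.8, 29.6 and 34.6 FPKM at 36 months, against 23.7, 19.5 and 20.8 at 6 months. The 12-month libraries had 22.9 to 23.8 and the 24-month libraries 22.0 to 26.9 FPKM, so the 36-month values stood above those of every other age. The log2 difference at 36 against 6 months was 0.54 ± 0.12 (adjusted p = 0.0252). It missed the threshold without the second or the third 6-month library or any of the 36-month libraries, with an adjusted p of at most 0.0812.

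sf3a1, the largest SF3A subunit (ENSDARG00000041887, chr8:36522382-36537802, plus strand), was at 43.3, 39.2 and 38.0 FPKM at 36 months, against 27.3, 30.2 and 29.5 at 6 months. Its 24-month values, 36.9, 36.1 and 43.5 FPKM, were also above all those of 6 months, while the 12-month values of 26.8 to 33.2 overlapped them. The log2 difference at 36 against 6 months was 0.46 ± 0.12 (adjusted p = 0.0438), and the call was lost in 10 of the 12 fits that left out a library, with an adjusted p of at most 0.128. sf3b2 and sf3b4, which in human contact the pre-mRNA beside the branch point, gave 0.34 ± 0.11 (adjusted p = 0.0746) and 0.49 ± 0.17 (adjusted p = 0.102). The most abundant genes of the family were the small subunits sf3b6, at 87.0 ± 19.1, 94.0 ± 2.5, 76.5 ± 2.64 and 88.0 ± 9.58 FPKM at 6, 12, 24 and 36 months, and sf3b5. sf3b5 had 55.5 ± 7.12, 54.6 ± 8.62, 67.5 ± 19.3 and 56.6 ± 16.1 FPKM at the same ages, and neither passed the test. The remaining SF3A subunits did not pass either, with sf3a2 higher at 36 than at 6 months (0.37 ± 0.13, adjusted p = 0.112) and sf3a3 lower (-0.22 ± 0.12, adjusted p = 0.268).

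Of the 9 tested prpf genes 1 fell at 36 against 6 months and 8 did not pass (11.1% called, where 8.25% of all genes were). prpf18, a factor of the exon-joining step (ENSDARG00000058306, chr18:8444101-8450499, plus strand), was at 21.5, 19.3 and 22.7 FPKM at 36 months, against 29.3, 32.4 and 31.3 at 6 months. The 12-month values were 26.7, 25.9 and 28.3 and the 24-month values 19.1, 21.7 and 23.6 FPKM. All libraries of 24 and 36 months were lower than all of 6 and 12 months. The mean was 21.2 ± 1.72 FPKM at 36 months and 31.0 ± 1.59 at 6 months, a log2 difference of -0.53 ± 0.11 (adjusted p = 0.0208), and the F test gave an adjusted p of 0.0396, lost without any of 10 of the 12 libraries (at most 0.0894). The call at 36 months was lost without the second or the third 6-month library, or the first or the second 36-month library (adjusted p at most 0.0674). Next to it in level was prpf6, a bridge protein of the U4/U6.U5 particle, at 28 ± 2.7, 28.6 ± 3.11, 27.8 ± 0.805 and 29.3 ± 2.15 FPKM at 6, 12, 24 and 36 months.

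Among the 12 tested SR protein genes 1 rose at 36 against 6 months (8.33% called, where 8.25% of all genes were). srsf10a, related to human SRSF10, a repressor of splicing when it loses its phosphates, was the least abundant gene called (ENSDARG00000022415, chr16:52633842-52654423, minus strand, 36 to 80 reads in a library). It was at 3.07, 2.76 and 3.31 FPKM at 36 months, against 1.47, 2.25 and 1.34 at 6 months, with 1.75 to 1.84 at 12 and 2.16 to 2.34 at 24 months. The 36-month values lay above those of all other ages. Its log2 difference was 0.61 ± 0.16 (adjusted p = 0.0408), and the call was lost in 10 of the 12 fits that left out a library (adjusted p at most 0.12). A locus without a name covers 99.9% of the gene at 3.70 FPKM on average, above the mean of the gene itself at each of the 4 ages. That locus did not pass at 36 against 6 months (-0.0037 ± 0.16, limma, adjusted p = 0.993). It was at 3.94 ± 0.97 FPKM at 36 months and 3.91 ± 0.43 at 6 months. Which share of its reads comes from srsf10a was not tested.

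srsf3b just missed the threshold (0.53 ± 0.15, adjusted p = 0.0589). The 2 most abundant SR genes did not pass the test. srsf2a, whose human counterpart binds exonic enhancers, had 115 ± 10.2, 114 ± 11, 122 ± 1.58 and 133 ± 14.7 FPKM at 6, 12, 24 and 36 months. srsf7a had 48.7 ± 3.95, 47.5 ± 6.97, 47.3 ± 4.78 and 55.7 ± 9.40 FPKM. Of the 12 SR genes 9 lay above 0 at 36 against 6 months (75%, where 50.0% of all genes did), and 8 of the 12 lie under an unnamed locus. The loci over srsf3a, srsf4, srsf6a, srsf10b and srsf11, which are untested genes, did not pass (limma, adjusted p of 0.117 to 0.75). Their log2 differences ran from -0.33 to 0.10, with only the locus over srsf11 above 0.

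Of the 8 tested hnrnp genes 2 rose at 36 against 6 months (25% called, where 8.25% of all genes were). Both lie under an unnamed locus that held 0 reads. The hnrnpa0l gene on chromosome 14 belongs to the A0 group, whose human member binds AU-rich elements of mRNA (ENSDARG00000036161, chr14:38509118-38510619, plus strand). It was the most abundant of all 92 genes together with snrpb, at 311, 248 and 295 FPKM at 36 months, against 180, 216 and 210 at 6 months. The lowest 36-month value was above the highest 6-month value, and the 24-month values of 241 to 258 FPKM were also above all those of 6 months. The log2 difference was 0.49 ± 0.13 (adjusted p = 0.0451), and it missed the threshold in 11 of the 12 fits that left out a library (adjusted p at most 0.133). A second gene named hnrnpa0l, on chromosome 20, lay at 3.79 to 6.66 FPKM and did not pass (-0.13, adjusted p = 0.596).

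hnrnpd, known in human as AUF1, a regulator of the decay of AU-rich mRNAs (ENSDARG00000059246, chr10:5000319-5016693, minus strand), was at 7.31, 6.85 and 7.79 FPKM at 36 months, against 5.06, 4.38 and 5.47 at 6 months. The 24-month libraries had 8.19, 7.50 and 7.47 FPKM and so lay above all those of 6 months as well. The log2 difference at 36 against 6 months was 0.48 ± 0.13 (adjusted p = 0.0432); the call was lost in 10 of the 12 fits that left out a library (adjusted p at most 0.132). hnrnpub, related to the nuclear scaffold protein hnRNP U, was the next most abundant hnrnp gene, at 55.1 ± 8.57, 59.1 ± 3.03, 63.7 ± 2.63 and 59.4 ± 4.69 FPKM at 6, 12, 24 and 36 months. It did not pass in any comparison. For 2 hnrnp genes that were not tested, the locus without a name over the gene passed the test at 36 against 6 months, where 8.25% of all genes were called. The tested loci over hnrnpa1b, hnrnpk, hnrnpm and hnrnpa0a, also untested genes, did not pass (limma, adjusted p of 0.296 to 0.881). The locus over hnrnph3 was at 1.30 ± 0.16 FPKM at 36 months and 2.81 ± 0.13 at 6 months (-0.73 ± 0.17, adjusted p = 0.0294). The locus over hnrnpa1a, which also spans other genes, was at 13.96 ± 0.82 FPKM at 36 months and 21.2 ± 0.65 at 6 months (-0.57 ± 0.15, adjusted p = 0.0408). Which share of these reads comes from the hnrnp genes was not tested.

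Of the 8 tested lsm genes 0 passed the test at 36 against 6 months with limma or with voom on recovered reads. With limma 8.25% of all genes were called, and 25.6% had an unadjusted p under 0.05. Of the lsm genes 1, lsm8, had an unadjusted p under 0.05. lsm8, which sets the nuclear U6 ring apart from the cytoplasmic one, was at 49.4, 41.6 and 50.9 FPKM at 36 months, against 28.8, 35.5 and 37.8 at 6 months (0.47 ± 0.13, adjusted p = 0.0559). lsm4 and lsm6, ring subunits shared by both LSm rings, were the most abundant. lsm4 had 101 ± 6.20, 98.1 ± 5.17, 102 ± 4.96 and 86.7 ± 13.2 FPKM and lsm6 had 56.7 ± 2.37, 53.3 ± 3.45, 58.4 ± 7.02 and 55.0 ± 5.50 FPKM at 6, 12, 24 and 36 months. The log2 differences of the U6 ring genes pointed both ways, with lsm8 higher and lsm4 and lsm5 lower at 36 than at 6 months by values that did not pass.

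Zebrafish keep 2 copies of many genes. The genes were taken by name alone, and whether each, lsm12a and lsm12b included, acts in splicing was not tested. Among them, the balance of the copies was tested for the 5 pairs with both copies measured. It differed with age in 1 pair, lsm12a and lsm12b (F test on the log2 difference of the copies, limma, adjusted over 636 pairs, adjusted p = 0.022); 11.9% of the 636 pairs were called. lsm12a (ENSDARG00000028848, chr3:22853550-22863885, plus strand) was at 14.9, 14.6 and 14.7 FPKM at 6 months, 8.21, 9.96 and 9.74 at 12, 14.6, 13.7 and 18.3 at 24 and 23.7, 13.5 and 16.6 at 36 months. lsm12b (ENSDARG00000045940, chr12:3172569-3187586, minus strand) was at 26.0, 36.0 and 29.9, then 35.6, 32.6 and 32.5, then 27.7, 27.0 and 29.5, and then 37.3, 28.9 and 30.4 FPKM. The b copy was the higher one in every library, and the 12-month libraries held the lowest a copies. The ratio of b to a was 2.08 ± 0.368 at 6 months, 3.65 ± 0.596 at 12, 1.83 ± 0.195 at 24 and 1.85 ± 0.285 at 36 months. The call was lost without the first (adjusted p = 0.0873) or the second (0.0507) 12-month library. At 12 months the 15 heart muscle markers summed to 8198 to 11662 FPKM, above the 5064 to 7568 FPKM of every other age. Of these markers 8 reached a mean of 1 FPKM. The 9 red cell symbols that matched, with hbaa1 listed at 0, summed to 6223 to 7256 FPKM at 12 months, above the 1546 to 6060 FPKM of the other ages. They stand for 10 genes, of which 4 reached a mean of 1 FPKM. The part of these differences in the lsm12 result was not tested.

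**Figure D5:**
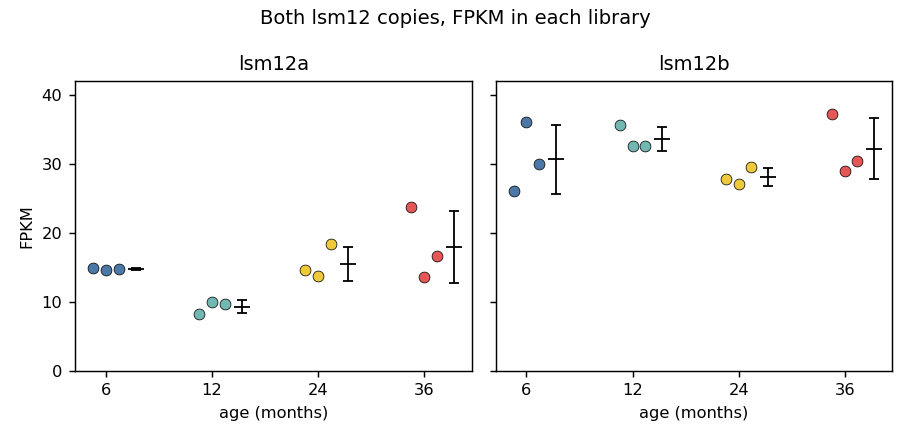
FPKM of lsm12a and lsm12b in each library (circles) at each age in months, with mean and SD (n = 3), on 1 scale from 0. The 12-month values of lsm12a, 8.21 to 9.96 FPKM, lie below its values at the other ages, while lsm12b lies between 26.0 and 37.3 FPKM throughout.

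The other 4 pairs, srsf1, srsf5, srsf7 and srsf2, had adjusted p of 0.341, 0.711, 0.712 and 0.828. Their copies differed in level: the a copy averaged 121 FPKM and the b copy 9.86 for srsf2, 49.8 and 5.34 for srsf7, 26.7 and 2.78 for srsf1, and 31.0 and 32.5 for srsf5. Reads that match both copies of a pair may be shared or dropped in counting, so levels of single copies are uncertain. The 3 u2af genes, which bind the 3′ end of the intron, were not tested: u2af2b was at 0.354 ± 0.264, 0.631 ± 0.0807, 0.593 ± 0.191 and 0.825 ± 0.119 FPKM at 6, 12, 24 and 36 months, u2af2a held 3 reads in the 12 libraries, and u2af1 was listed at 0.

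Between the other ages few of the genes passed. At 24 against 6 months snrpb alone passed, 1 of 55 (1.82%) where 0.709% of all genes were called; 10 had an unadjusted p under 0.05 (18.2%, against 15.5% of all genes). At 12 against 6 months 0 of 55 passed with limma, where 0.0185% of all genes did, and 4 had an unadjusted p under 0.05 (7.27%, against 9.45% of all genes). At 24 against 12 months 0 passed (0.715% of all genes) and 12 had an unadjusted p under 0.05, 7 higher and 5 lower (21.8%, against 14.5% of all genes), with the smallest p in snrpb. At 36 against 24 months 0 passed (1.12% of all genes) and 3 had an unadjusted p under 0.05 (5.45%, against 16.7% of all genes). A count test on the reads recovered from FPKM, limma voom, also called 0 in these 3 comparisons, with 3, 12 and 2 genes under an unadjusted p of 0.05. Across the 4 ages the F test called 2, snrpb and prpf18 (3.64%, where 5.28% of all genes were called), and 15 had an unadjusted p under 0.05 (27.3%, against 25.3% of all genes).

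Splicing genes outside these families were read from a list of 140 symbols that covers other spliceosome proteins, the exon junction complex, SR protein kinases, Sm ring assembly and tissue-specific regulators. Of these 134 matched, and 78 genes were tested. At 36 against 6 months 1 rose, 1 fell and 76 did not pass (2.56% called, where 8.25% of all genes were), with a median log2 difference of 0.08. An unadjusted limma p under 0.05 was met by 20 of the 78 (25.6%, against 25.6% of all genes). mbnl1, a muscleblind regulator of alternative splicing in muscle, was at 37.3, 60.0 and 49.7 FPKM at 36 months, against 20.5, 28.6 and 21.6 at 6 months. The 12-month and 24-month libraries lay between 22.2 and 26.7 FPKM, so all 3 at 36 months stood above every other library. The log2 difference was 1.01 ± 0.18 against 6 months (adjusted p = 0.0105) and 0.98 ± 0.18 against 24 months (adjusted p = 0.0364), the second lost without any of 7 of the libraries (adjusted p at most 0.117).

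khdrbs1b, related to the RNA-binding protein Sam68, was at 10.7, 11.5 and 13.1 FPKM at 36 months, against 14.7, 18.2 and 17.5 at 6 months. The 24-month values, 10.97 to 11.3 FPKM, were as low, and the 12-month values lay at 14.9 to 16.0. The log2 difference at 36 against 6 months was -0.47 ± 0.12 (adjusted p = 0.0339), lost without any of 6 of the libraries (adjusted p at most 0.105). At 36 against 24 months mbnl1 was the 1 gene of the list called (1.28%, against 1.12% of all genes), and 0 were called in the 3 remaining comparisons with limma. Under an unadjusted p of 0.05 were 1 at 12 against 6 months (1.28%, against 9.45% of all genes) and 6 at 24 against 6 (7.69%, against 15.5%). At 24 against 12 months there were 5 (6.41%, against 14.5%).

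The levels of cell type markers differed between the libraries beside these results. All 16 macrophage and granulocyte markers matched, 3 of them (marco, mfap4 and ptprc) listed at 0, and they summed to 182 to 662 FPKM at 6 months, 425 to 541 at 12, 705 to 1771 at 24 and 390 to 1205 at 36 months. For lymphocytes 14 of 15 symbols matched, 1 of them, cd3eap, an RNA polymerase I subunit gene and no lymphocyte marker, with sums of 11.2 to 24.1 FPKM at 6 months, 10.5 to 32.4 at 12, 15.6 to 36.0 at 24 and 36.6 to 51.5 at 36 months. The 19 proliferation genes summed to 94.8 to 143 FPKM at 6 months, 111 to 128 at 12, 136 to 226 at 24 and 134 to 193 at 36 months. The part of these differences in the splicing factor results was not tested. Hepatocyte markers summed to 574 FPKM in the first 6-month library and 974 in the second 12-month library, against 2.12 to 109 in the other 10. Without the first 6-month library 4 splicing factor genes were called at 36 against 6 months, and without the second 12-month library 3. With all 12 libraries 7 were called. Among all 16223 genes the calls were 2088 without the first 6-month library, 1135 without the second 12-month library and 1338 with all 12. Heart muscle markers were present in every library, although only 8 of the 15 reached a mean of 1 FPKM and tnnc1a, the cardiac troponin C gene, was listed at 0.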

How the data were processed

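CASAVA 1.8, HISAT2 2.0.5 and the build GRCz11 are named in the submitters' processing notes. The authors deposited FPKM values in 4 tables, 1 for each age, that list the same 50640 genes; 15524 of these are loci without a name. The counter, the annotation release and the use of strand are not given in the sources used here. FPKM times gene length was divided by the smallest non-zero such value of the library, which was taken as 1 read. The result was a whole number (within 0.01) for 100% of values.

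The members and gene lists were chosen with earlier results of these data known. Genes averaging 1 FPKM or more over the 12 libraries were fitted on log2(FPKM + 1) with 4 age means (limma 3.58.1, R 4.3.3, eBayes with trend, 8 residual degrees of freedom), two-sided, with Benjamini-Hochberg adjustment over all 16223 genes or, for copies, 636 pairs, and a threshold of 0.05. The procedure was tested on simulated data. Genes named are those called and the 2 most abundant of each family; others named fall just outside the threshold, complete a complex or are listed at 0, and were chosen after their values were seen. Alternatives were a pseudocount of 0.1, no filter or a mean of 5 FPKM, 2 rescalings, replicate number as a block, voom on recovered reads, unnamed loci left out, 2-age fits and each library left out. Tables and figures were made with Python 3.11.15. No sequence is printed, since only gene tables were used.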

Additional observations from a re-analysis of the deposited data

How the results depend on the processing

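The genes called kept their direction in every alternative run that fitted them. For the other genes named, the direction in these runs is not given here. At 36 against 6 months, where 7 splicing factor genes were called, the count was 4 with no filter and 4 with voom on recovered reads. It was 0 where only both ages compared were fitted and 1 to 6 without single libraries. The other settings, apart from the replicate block, gave 5 to 8. These counts take in every splicing factor gene called in a setting, also genes outside the 7. Of all genes, 739 of 50640 were called with no filter, where all 92 splicing factor genes were fitted. With voom 1053 of 16223 were called, and 278 in the fit of both ages alone. Without single libraries 479 to 2088 of 16223 were called. A pseudocount of 0.1 gave 1293 of 16223, median-ratio size factors 1342 and an equal sum 1133. The fits with fewer genes called 937 of 7062 at a mean of at least 5 FPKM and 990 of 10493 with unnamed loci left out. The calls of sf3a1, hnrnpd and the hnrnpa0l gene were lost both with no filter and with voom, and those of sf3a1, hnrnpd, sf3b3 and prpf18 with an equal sum per library, where lsm8 and srsf3b were called instead; snrpb was called in all of these but the fit of both ages alone. At 24 against 6 months, where 1 was called, the count was 0 with no filter and 2 at a mean of at least 5 FPKM. It was 0 in the fit of both ages alone and 0 to 1 without single libraries. All-gene calls were 29 of 50640 with no filter and 136 of 7062 at a mean of at least 5 FPKM. In the fit of both ages alone 2 of 16223 genes were called. At 24 against 12 months, where 0 were called, the count was 1 at a mean of at least 5 FPKM and 1 with an equal sum per library. It was 1 with loci without a name left out and 0 to 1 without single libraries. All-gene calls were 139 of 7062 at that mean, 142 of 16223 with an equal sum and 123 of 10493 without such loci. The F test, which called 2, gave 5 at a mean of at least 5 FPKM and 1 to 4 without single libraries. The 2 other splicing genes called at 36 against 6 months became 4 at a mean of at least 5 FPKM, 0 in the fit of both ages alone and 1 to 4 without single libraries; the 2 of the F test became 1 with no filter, 1 with an equal sum and 0 to 3 without single libraries. The lsm12 pair was the 1 pair called or was lost (0 to 1) without single libraries. The counts at 12 against 6 and 36 against 24 months were 0 in every setting run. With replicate number as a block, 3 splicing factor genes were called at 36 against 6 months, 0 at 24 against 6 and 1 in the F test, and of the other splicing genes 1 in each; the numbers did not pair the libraries, with correlations of deviations from the age means of -0.154 to 0.106 over 18 pairs of libraries, 1 of them over 0.1. The block fit called 885 of all 16223 genes at 36 against 6 months and 50 at 24 against 6. Of the 2 rescalings, median-ratio size factors could change little and give no separate check. The FPKM already carried that scaling, with factors of 1.01 to 1.02 in the 12 libraries. An equal sum per library shifted the all-gene median by no more than 0.07 (log2). The cause of these changes in the calls was not tested, and the part of fewer libraries or more genes in a fit was not tested either. Depth limits srsf10a, with 36 to 80 reads in a library.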
